A study of Mus musculus with 6 samples.

Results

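Fibroblast growth factor (FGF) ligands, their receptors and their cofactors were examined in mouse mammary tumour-derived cells with and without the kinase SLK. The members were every gene whose symbol reads Fgf or Fgfr followed by a digit, together with Fgfrl1, Fgfbp1, Fgfbp3, Frs2, Frs3, Flrt1, Flrt2, Flrt3, Kl and Klb. Of these, 37 genes were measured among the 22180 genes tested, and Frs2 was not analysed here. They comprised 22 FGF genes, 5 receptor genes, 2 klotho co-receptors, 3 FLRT genes, 2 binding proteins, the adaptor Frs3, and 2 genes that carry the letters but are neither ligand nor receptor (Fgf2os and Fgfr1op2).

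The cells were untreated NeuNDL-derived cultures, that is, cells transformed by an activated deletion form of the receptor tyrosine kinase Neu (ErbB2), which both groups share. They were grown in serum-containing medium with a mammary epithelial growth supplement, and they were either SLK wild-type (3 arrays) or SLK knockout (3 arrays). SLK is a Ste20-like kinase known for its part in focal adhesion turnover and cell migration. Passages 9, 19 and 29 are given for the series, but no label ties a passage, a clone or a line to an array, and no label says how SLK was removed. The spread behind each p-value is therefore that between these arrays, and it may be technical.

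Secreted FGFs bind receptor tyrosine kinases on the cell surface, mostly with heparan sulfate as a cofactor, and the activated receptors signal through the adaptors FRS2 and FRS3 to the RAS-ERK and PI3K pathways. The endocrine FGFs bind heparan sulfate weakly and use a klotho protein as co-receptor instead. In the mammary gland, FGF10 and the epithelial form of FGFR2 are needed for bud formation and branching, and Fgf3 was first found as an insertion site of mouse mammary tumour virus.

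Array medians lay between 3.93 and 3.97 on the log2 scale, and Pearson's r between arrays, taken over probe sets, was 0.990 to 0.994. The targeted gene Slk was lower on every knockout array, at 7.18 ± 0.03 against 8.28 ± 0.07 (SD, n = 3 each). Of 8 luminal epithelial markers, 6 had a mean above that of the median gene (4.39), among them the keratin genes Krt8 and Krt18, and Krt19 and Elf3 lay below it. Of 7 endothelial and 6 leukocyte markers, 1 each lay above it, namely Kdr and Cd68. Of 9 fibroblast markers 6 lay above it, among them Pdgfra and Pdgfrb. The same held for 3 of 6 basal epithelial, 3 of 5 Schwann and neural crest and 1 of 5 adipocyte markers. These counts therefore do not set luminal cells apart from fibroblasts. Probes differ in how strongly they bind, so the place of a gene relative to the median gene is a rough guide to its signal and not a level of its RNA, and every test compared the groups on the same probe set.

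Of the 37 members, 1 rose in knockout cells and none fell (limma, Benjamini-Hochberg adjusted over all genes at 0.05). The member that rose was Fgf15, the endocrine FGF that the intestine releases to restrain bile acid synthesis in the liver, the mouse counterpart of human FGF19. Over all genes tested 0.325% were called higher and 0.113% lower, and the members' share is set by that single gene. At an unadjusted p under 0.05, 4 members were higher (Fgf15, Fgf4, Fgf16 and Fgf18) and 1 was lower (Flrt2), where 5.75% of all genes were higher and 4.47% lower by that measure. The knockout arrays lay wholly above the wild-type arrays for 5 members and wholly below them for 1, beside 8.79% and 8.1% of all genes. The median log2 difference, knockout minus wild-type, was -0.0034 over the members and 0.0038 over all genes.

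**Figure D1:**
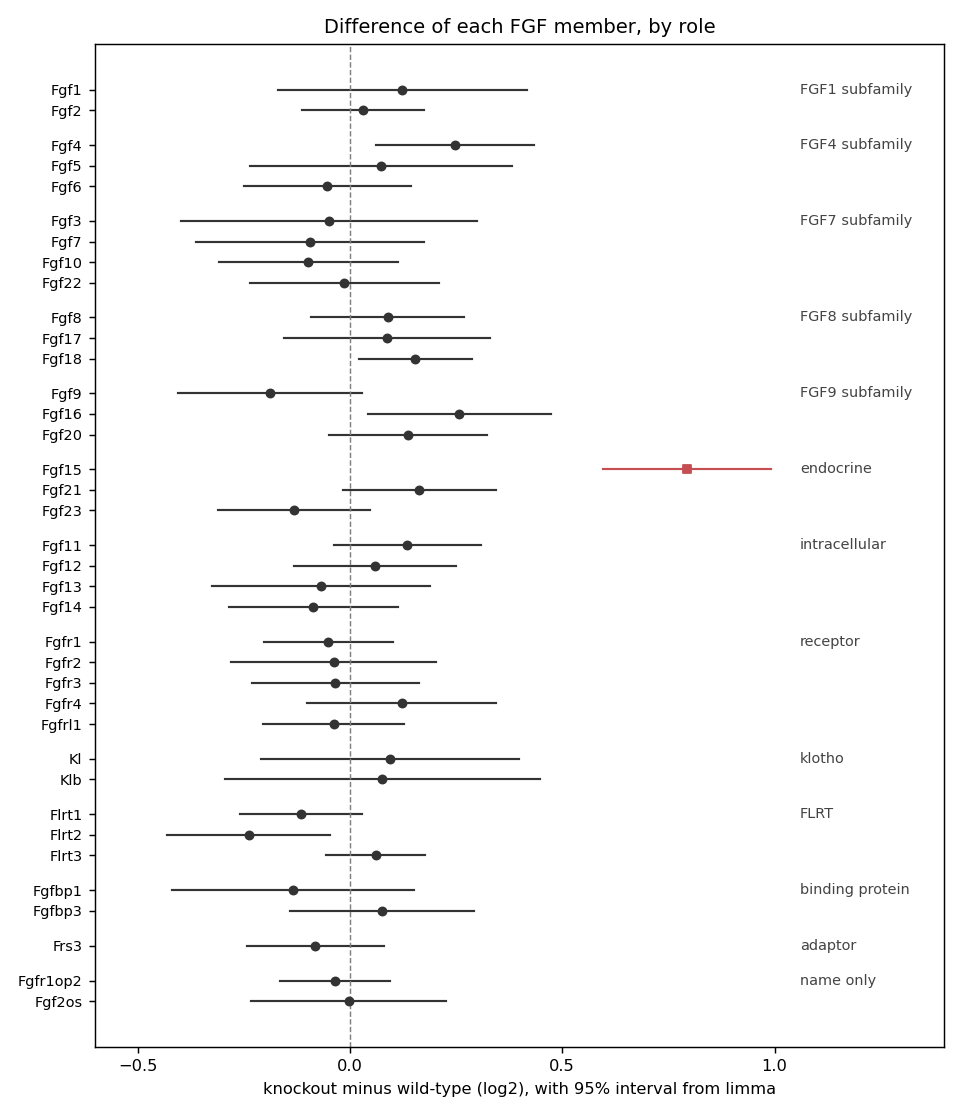
Difference between knockout and wild-type cells (log2, horizontal axis) for each of the 37 members, grouped by role, with points for limma estimates and lines for their 95% intervals; the square marks the member with an adjusted p under 0.05, and "name only" marks genes that are neither ligand nor receptor. Fgf15 stands at 0.79, and the other 36 members lie between -0.24 and 0.26.

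The endocrine ligands were Fgf15, Fgf21 and Fgf23. Fgf15 had values of 4.51, 4.76 and 4.71 on wild-type arrays 1 to 3 and of 5.53, 5.44 and 5.38 on knockout arrays 1 to 3. All 3 knockout arrays were above all 3 wild-type arrays, with a gap larger than the spread within either group. The difference was 0.79 on the log2 scale (SE 0.08), a 1.73-fold higher signal (limma, adjusted p = 0.0222). In bulk RNA of this kind, more cells that express a gene and more RNA per cell cannot be told apart.

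The call of Fgf15 was lost whichever array was left out, and it depended on the choice of probe set. Without wild-type array 1, 2 or 3 the adjusted p was 0.0519, 0.0621 and 0.0891, and without knockout array 1, 2 or 3 it was 0.114, 0.0984 and 0.0842. The log2 difference stayed between 0.72 and 0.84 in these 6 fits. Each had fewer arrays, and the calls over all genes fell from 97 to between 16 and 28. A second, dimmer probe set for Fgf15 had values of 3.58, 3.83 and 3.88 in wild-type and 4.06, 3.95 and 3.79 in knockout cells. Its groups overlapped, and its difference was 0.17 (SE 0.11, adjusted p = 0.788 over all 41345 probe sets). The mean of both probe sets gave a difference of 0.48 (adjusted p = 0.122), and which transcripts each probe set reads was not tested. When each probe set of the array was tested by itself, the brighter probe set had an adjusted p of 0.0938.

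**Figure D2:**
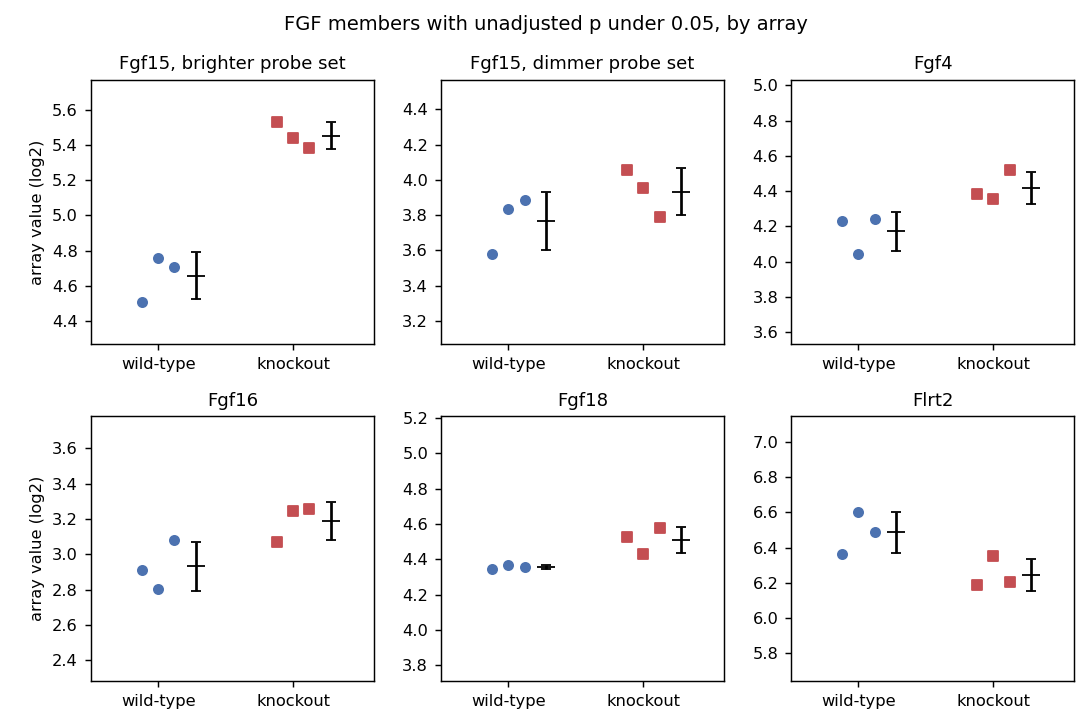
Array values (log2, vertical axis, spanning the same width in every panel) of both Fgf15 probe sets and of Fgf4, Fgf16, Fgf18 and Flrt2 on wild-type arrays (circles) and knockout arrays (squares), with the mean and SD (n = 3) beside each group. The brighter Fgf15 probe set separates the groups, at 4.51 to 4.76 against 5.38 to 5.53, and the dimmer probe set overlaps.

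The other endocrine ligands did not pass the test. Fgf21, a metabolic hormone made mainly by the liver, had 3.56 ± 0.08 in wild-type and 3.73 ± 0.11 in knockout cells (SD, n = 3 each). Fgf23, the bone-derived regulator of phosphate, had 2.82 ± 0.13 and 2.69 ± 0.02. Both groups of arrays overlapped for Fgf21 and for Fgf23.

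The co-receptors through which endocrine FGFs act showed no difference past the threshold. Klb, the beta-klotho gene that serves FGF15 and FGF21, had values of 3.10, 3.002 and 2.52 in wild-type and 2.88, 2.90 and 3.08 in knockout cells. Its difference of 0.08 had a 95% interval of -0.30 to 0.45. Kl, the klotho gene that serves FGF23, went from 3.14 ± 0.26 to 3.23 ± 0.03 (SD, n = 3 each), with an interval of -0.21 to 0.40. Every array lay below the median gene for both genes, a range in which array values compress differences.

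Fgf15 lies on chromosome 7 in a group of FGF genes, in the annotated order Fgf3, Fgf4, Fgf15, then LTO1 and the cyclin D1 gene Ccnd1. The long noncoding gene Gm26793 is annotated as overlapping Fgf15 and was not analysed here, so a share of its RNA in the Fgf15 signal was not tested. Fgf4 had a difference of 0.25 (SE 0.08, adjusted p = 0.350), with knockout arrays above wild-type arrays. Fgf3 had a difference of -0.05, LTO1 one of -0.03 and Ccnd1 one of -0.0059, and their groups overlapped.

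The 15 secreted FGFs that act locally held no call. Of them the knockout mean was above the wild-type mean for 9 and below it for 6, and the median difference was 0.07. Fgf4, an early embryonic growth factor, was at 4.23, 4.04 and 4.24 on wild-type arrays and at 4.38, 4.35 and 4.52 on knockout arrays. Its knockout arrays were all above the wild-type arrays, by a margin smaller than the range within either group. Fgf5 and Fgf6, the relatives of Fgf4, had differences of 0.07 and -0.05, and their groups overlapped.

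In the subfamily of Fgf9, which signals between epithelium and mesenchyme, the members differed in sign. Fgf16 had values of 2.91, 2.80 and 3.08 in wild-type and 3.07, 3.25 and 3.26 in knockout cells. The groups overlapped in a single pair, the third wild-type and the first knockout array, and the difference was 0.26 (SE 0.09, adjusted p = 0.40). Fgf20 had a difference of 0.14 with separated arrays, and Fgf9 itself one of -0.19 with overlapping arrays (adjusted p = 0.627 and 0.549).

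The subfamily of Fgf8, a patterning factor of the embryo, had higher means in knockout cells for each of its 3 members. Fgf18, which acts in bone and lung development, was at 4.34, 4.37 and 4.36 in wild-type and 4.52, 4.43 and 4.58 in knockout cells. Its arrays were separated, and the difference was 0.15 (SE 0.06, adjusted p = 0.417). Fgf17 was at 4.80, 4.89 and 4.90 in wild-type and 4.75, 5.13 and 4.97 in knockout cells, and Fgf8 had a difference of 0.09. The groups of Fgf17 and of Fgf8 overlapped.

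The ligands of the Fgf7 subfamily include Fgf7 and Fgf10, stromal factors that act on epithelial FGFR2. All 4 members had a slightly lower mean in knockout cells, from -0.0139 for Fgf22 to -0.0979 for Fgf10, with overlapping arrays and the lowest adjusted p at 0.764. Fgf22 was at 5.49, 5.73 and 5.59 in wild-type and 5.74, 5.48 and 5.55 in knockout cells. For Fgf10 a second, dimmer probe set gave a difference of the opposite sign, 0.18 (adjusted p = 0.697 over all probe sets).

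Fgf1 and Fgf2 encode FGFs that lack a classical signal peptide and are released by another route. Fgf2 was at 5.76, 5.81 and 5.74 in wild-type and 5.79, 5.73 and 5.89 in knockout cells, a difference of 0.03 with a 95% interval of -0.11 to 0.18. Fgf1 was at 4.38, 4.27 and 4.43 in wild-type and 4.41, 4.75 and 4.29 in knockout cells. A single array, the second knockout, was high for Fgf1, and without it the difference of 0.12 became -0.01.

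The intracellular FGFs, which are not secreted and bind voltage-gated sodium channels, were Fgf11, Fgf12, Fgf13 and Fgf14. Their differences were 0.13, 0.06, -0.07 and -0.09, their groups overlapped, and all 4 means were below the median gene.

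The receptors did not differ past the threshold. Fgfr1, the receptor best known from mesenchymal cells and from amplification in breast cancer, was at 8.77, 8.75 and 8.82 in wild-type and 8.63, 8.81 and 8.75 in knockout cells. The groups overlapped, and the difference of -0.05 had a 95% interval of -0.20 to 0.10. Fgfrl1, a receptor-like protein without a kinase domain, was at 7.28, 7.26 and 7.15 in wild-type and 7.25, 7.24 and 7.08 in knockout cells, with an interval of -0.20 to 0.13.

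The remaining receptors had values below the median gene on every array. Fgfr2, the receptor of FGF7 and FGF10 on epithelium, was at 3.60, 3.71 and 3.41 in wild-type and 3.66, 3.55 and 3.40 in knockout cells, with an interval of -0.28 to 0.20. Fgfr3, known for restraining bone growth, was at 3.64, 3.40 and 3.43 against 3.54, 3.46 and 3.37. Fgfr4, which with beta-klotho receives FGF15 in the liver, was at 3.96, 3.80 and 3.71 against 4.06, 3.97 and 3.80. Its difference was 0.12, with an interval of -0.10 to 0.34, and it ranged from 0.06 to 0.19 with any single array left out. Values per gene do not resolve splice forms, so the epithelial and mesenchymal forms of the receptors could not be compared.

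**Figure D3:**
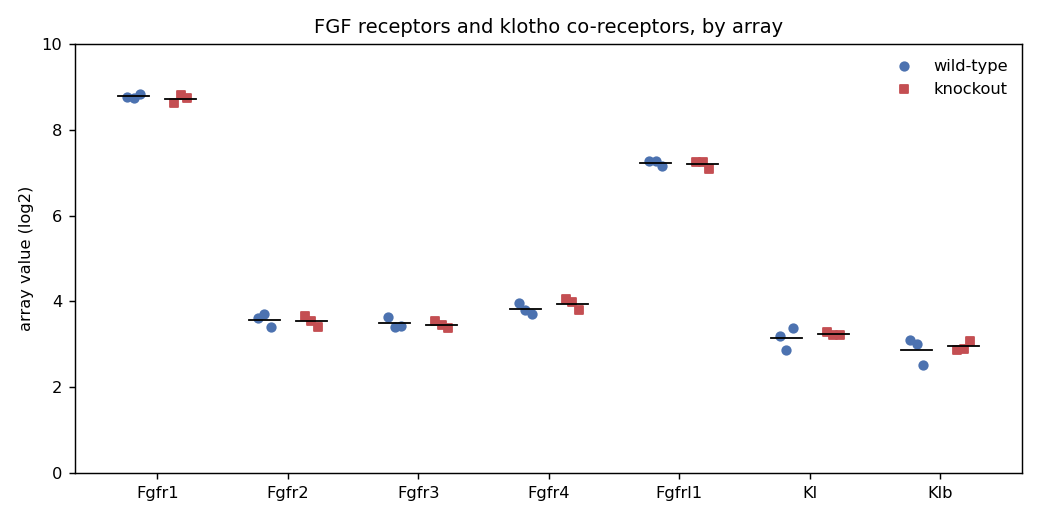
Array values (log2, vertical axis from 0) of the 5 receptor genes and both klotho genes on wild-type arrays (circles) and knockout arrays (squares), with a line at each group mean (n = 3). The groups overlap for each of the 7 genes; heights of different genes are not comparable, because probes differ.

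The FLRT proteins are membrane proteins with leucine-rich repeats that associate with FGF receptors and also bind latrophilin and UNC5 receptors. Flrt2 was at 6.37, 6.60 and 6.49 in wild-type and 6.19, 6.35 and 6.20 in knockout cells. Its knockout arrays were all below its wild-type arrays, the nearest by less than the SD of either group, and the difference was -0.24 (SE 0.08, adjusted p = 0.383). Flrt3 was separated in the other direction, with a difference of 0.06, and Flrt1 had a difference of -0.11 with overlapping arrays.

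Among the other cofactors, Fgfbp1 and Fgfbp3 encode secreted carriers that release FGFs from the matrix. Fgfbp1 had a difference of -0.13 and Fgfbp3 one of 0.08, and Frs3, an adaptor docked to the receptor, one of -0.08, all with overlapping arrays. Fgf2os, a noncoding RNA of the strand opposite Fgf2, had a difference of -0.0034. Fgfr1op2, named after a gene fusion with FGFR1, had -0.04. Apart from Fgf15, the 95% interval of every member lay within 0.5 log2 units of 0.

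Genes that work with FGFs were taken from lists and described by counts. Among 29 measured heparan sulfate proteoglycans and their enzymes none passed the threshold, and the median difference was 0.0040. At an unadjusted p under 0.05, 4 were higher and 3 lower, beside 5.75% and 4.47% of all genes. The smallest p belonged to Gpc3, a glypican, with a difference of 0.31 (SE 0.05, adjusted p = 0.0926), then to Ndst3, a heparan sulfate sulfotransferase, with 0.40 (SE 0.07, adjusted p = 0.0977), and to the glypican gene Gpc6 with -0.36 (SE 0.07, adjusted p = 0.148). For each of these genes the arrays of the groups were separated. Ndst3 and Gpc6 passed the threshold when an intensity trend was used (adjusted p = 0.00829 and 0.0102), whereas Gpc3 (mean 2.78) went to 0.215. That setting, also used below, raised the calls over all genes from 97 to 441. With the replicate numbers as a block, Ndst3 and Gpc6 had adjusted p of 0.294 and 0.308.

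A mixed list of 12 surface, matrix and splicing genes linked to FGFs or their receptors held 1 gene that rose and 1 that fell, beside 0.325% and 0.113% of all genes, and the median difference was 0.01. At an unadjusted p under 0.05, 3 were higher and 3 lower, beside 5.75% and 4.47% of all genes. The arrays were separated for 8 of the 12 genes (66.7%, beside 16.9% of all genes). Of the 12 genes, 10 lay above the median gene, and the list was chosen with earlier results of these data known. Its shares are therefore no test of a link to FGFs. L1cam, a neural adhesion molecule known to engage FGFR1, was at 4.84, 4.71 and 4.67 in wild-type and 5.86, 5.69 and 5.88 in knockout cells. Its arrays were far apart, and the rise was 2.10-fold (log2 1.07, SE 0.08, limma adjusted p = 0.0055, and at most 0.0479 with any single array left out). Cdh1, the E-cadherin gene, had 7.79 ± 0.01 in wild-type and 7.36 ± 0.01 in knockout cells (SD, n = 3 each), a fall by 0.43 on the log2 scale (adjusted p = 0.0224). Its call was lost whichever array was left out (adjusted p from 0.0984 to 0.127) and when its probe sets were averaged (-0.27, adjusted p = 0.453).

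In the same list Esrp2, which promotes the epithelial splice form of FGFR2, had a difference of -0.38 (SE 0.06, adjusted p = 0.0663) with separated arrays. The adjusted p of Esrp2 was 0.0040 with an intensity trend and 0.270 with the replicate block. Its relative Esrp1 had -0.09 with overlapping arrays. Ncam1, another adhesion molecule that binds FGFR1, had 0.16 (adjusted p = 0.385), and Cdh2, the N-cadherin gene that stabilises FGFR1, had 0.03.

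None of the 21 measured genes of the signal relay below the receptor passed the threshold, and their median difference was -0.02. At an unadjusted p under 0.05 none of them was higher and 1 was lower, beside 5.75% and 4.47% of all genes. The lower gene was the PI3-kinase regulatory subunit gene Pik3r1, with -0.25 (SE 0.05, adjusted p = 0.121). Its adjusted p was 0.0025 with an intensity trend and 0.323 with the replicate block. Akt1 and Akt2, kinases downstream of PI3-kinase, had differences of 0.13 and -0.09 with separated arrays. The adaptor gene Grb2 had -0.12 and the phosphatase gene Ptpn11 0.02, and their groups overlapped.

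The 20 measured ERK targets and feedback inhibitors that respond to FGFs held no call, and their median difference was 0.0062. At an unadjusted p under 0.05, 5 were higher and 3 lower, beside 5.75% and 4.47% of all genes. The arrays were separated for 7 of the 20 (35.0%, beside 16.9%). Of the 20 genes, 17 lay above the median gene, and this list too was chosen with earlier results known. Its shares are therefore no test of a response to FGFs. Etv1, an ETS transcription factor induced by ERK, was at 6.46, 6.77 and 6.77 in wild-type and 7.28, 7.10 and 7.19 in knockout cells. Its arrays were separated with a difference of 0.52 (SE 0.10, adjusted p = 0.118). The adjusted p of Etv1 was 0.0065 with an intensity trend and 0.323 with the replicate block. Averaged over its probe sets, Etv1 had a difference of 0.38 (adjusted p = 0.0848).

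The feedback inhibitors of this list differed in sign. The feedback inhibitor gene Spry1 had -0.24 (SE 0.07, adjusted p = 0.269) with separated arrays, whereas Spred3, another inhibitor, had 0.22 and the ERK phosphatase gene Dusp6 0.17, both with separated arrays. Averaged over its probe sets, Dusp6 had a difference of 0.04 (adjusted p = 0.855). Spry2 and Spry4, the sprouty genes most often used as FGF readouts, had -0.08 and 0.13 with overlapping arrays. Spry3, a dim gene (mean 2.28), had 0.55 (adjusted p = 0.328) with overlapping arrays. Among the targets, the immediate early gene Egr1 had -0.37 (SE 0.11, adjusted p = 0.301), and Myc had -0.13 with separated arrays (adjusted p = 0.486). Etv4 and Etv5, relatives of Etv1, had the same sign as Etv1, with 0.13 and 0.18. For Etv5 the difference became 0.10 when its probe sets were averaged.

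**Figure D4:**
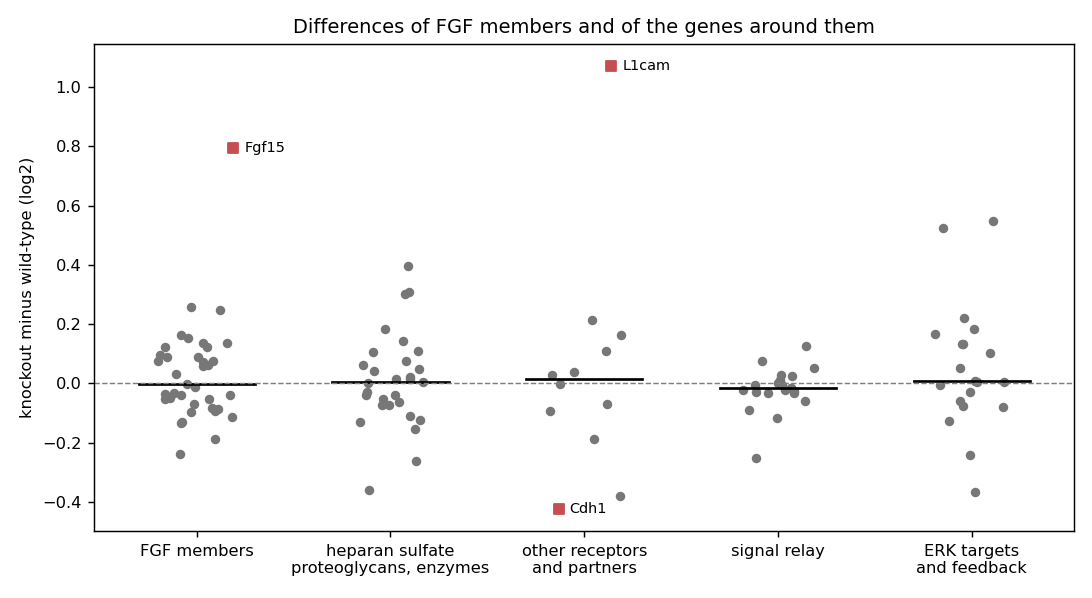
Differences between knockout and wild-type cells (log2, vertical axis) of the 37 FGF members and of the genes in 4 lists around them, with a point per gene, a black line at each median and named squares for genes with an adjusted p under 0.05. Medians of all 5 sets lie between -0.02 and 0.01, and Fgf15, L1cam and Cdh1 are the called genes.

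Marker lists of other cell types were set beside these results. Their calls stand beside 0.325% of all genes called higher and 0.113% called lower. Of 5 measured Schwann and neural crest markers 1 rose, Sox10, with a difference of 1.47. The other 4 were not called, with 0.12 for Erbb3, -0.14 for S100b, -0.10 for Foxd3 and -0.08 for Ngfr, and the list median was -0.08. The mean of that list was 4.66 to 4.74 on wild-type and 4.88 to 5.04 on knockout arrays.

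Of 5 adipocyte markers 1 rose, Fabp4, with a difference of 0.92, while Cidec had -0.31, Plin1 -0.18 and the defining adipokine gene Adipoq -0.08. Lep had 0.26, the median of the adipocyte list was -0.08, and its mean was 3.92 to 3.96 on wild-type and 3.99 to 4.14 on knockout arrays. Of 9 fibroblast markers 1 fell, Pdgfrb, with 4 means higher and 5 lower in knockout cells and a median of -0.15. Dcn went the other way, with 0.43 and separated arrays (adjusted p = 0.104). The fibroblast list means were 5.34 to 5.39 on wild-type and 5.23 to 5.29 on knockout arrays. Of 6 basal epithelial markers 1 fell, Krt14, with 1 mean higher and 5 lower and a median of -0.19. Acta2 had -0.47 with separated arrays (adjusted p = 0.0552). The basal list means were 5.23 to 5.33 on wild-type and 4.91 to 5.11 on knockout arrays.

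Of 8 luminal markers 1 fell, Cdh1, with 6 means higher and 2 lower, a median of 0.06 and list means of 7.39 to 7.46 and 7.39 to 7.42. The other lower luminal marker was Epcam, with -0.35 and separated arrays (adjusted p = 0.0826). Krt8 and Krt18 went the other way, with 0.15 and 0.14 and separated arrays (adjusted p = 0.366 and 0.399). None of 7 endothelial markers was called, and their list means were 3.75 to 3.90 and 3.70 to 3.86, with -0.22 for Tek and -0.32 for Kdr and a median of 0.0029. None of 6 leukocyte markers was called either, with list means of 3.50 to 3.61 and 3.60 to 3.68, 0.29 for Tyrobp and a median of 0.05. The defining leukocyte gene Ptprc had a mean of 2.22 in wild-type and 2.17 in knockout cells.

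The calls of Sox10, Pdgfrb, Fabp4 and Krt14 did not hold in every fit with an array left out. Their differences ranged from 1.36 to 1.54, -0.69 to -0.65, 0.82 to 1.03 and -0.69 to -0.62 in these fits. Each such fit had fewer arrays, and the calls over all genes fell from 97 to between 16 and 28. The adjusted p reached 0.0616 for Sox10 (lost without wild-type array 1 or knockout array 3), 0.0503 for Pdgfrb (without wild-type array 2), and 0.137 for Fabp4 and 0.0725 for Krt14 (each lost without any array but wild-type array 1). Fabp4 and Krt14 also lost the call when each probe set was tested by itself (adjusted p = 0.119 and 0.0551). The part of any of these cell types in the Fgf15 and L1cam differences was not tested.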

How the data were processed

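Total RNA was biotin-labelled and measured on 6 one-colour arrays. The deposited table holds log2 values of 41345 probe sets per array, made with Affymetrix Expression Console 1.4.1.46 per the submitters' processing notes. Its background correction and normalization, and the logarithm's base, were not given in the sources used here. Values were taken as log2 because the highest, 12.4, could not be a natural logarithm of a 16-bit signal (at most 11.1). Such values compress differences of dim genes, and detection was not called.

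The platform's annotation gave 23521 probe sets a single symbol. The probe set with the highest mean over all arrays stood for each of 22180 genes. Fgf10 and Fgf15 had a second probe set, and 1 probe set shared by Frs3 and its antisense gene was left out. Gene order came from RefSeq on GRCm38.p6, and no coordinates are given because the files name no build.

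Groups followed the sample titles. The genotypes were compared in R 4.3.3 with limma 3.58.1 (eBayes after lmFit, without trend or covariate), two-sided, with Benjamini-Hochberg adjustment over all genes and a threshold of 0.05. The fit was also run on simulated arrays with planted differences and independent noise, which cannot show how the real replicates relate. Alternatives were other normalizations, filters on dim genes, probe set rules, an intensity trend, array weights, a replicate block and leaving out each array. Values per array are given for members with an unadjusted p under 0.05, for the receptors and for ligands brighter than the median gene; from each pathway list the 3 members of smallest p were named, and others were chosen after their values were seen. The members and lists were chosen with earlier results of these data known.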

Additional observations from a re-analysis of the deposited data

How the results depend on the processing

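The 97 genes called became 206 without the dimmest 30% of genes, 341 without the dimmest 50%, 441 with an intensity trend, 29 when each probe set was tested by itself, 6 with the replicate block, and 16 to 28 with 1 array left out. The 1 FGF member called, Fgf15, became 0 when a gene's probe sets were averaged, with each probe set by itself, with the replicate block and with any array left out (0 to 0); quantile normalization, median centring, both filters, the intensity trend and array weights kept it. The cause of these moves was not tested. No label says whether the replicate numbers pair the arrays. Deviations of same-numbered arrays from their group means correlated at 0.04, 0.02 and -0.07, and those of differently numbered arrays at -0.12 to 0.11. With 3 arrays a group these correlations cannot decide it. With the block the adjusted p was 0.176 for Fgf15, 0.0700 for L1cam, 0.189 for Cdh1, 0.0846 for Sox10 and 0.110 for Pdgfrb, Krt14 and Fabp4. Small differences changed sign when particular arrays were left out, with ranges of -0.0100 to 0.219 for Fgf1, -0.0125 to 0.0685 for Fgf2, -0.0040 to 0.19 for Fgf17, -0.0878 to 0.0498 for Fgf22, -0.121 to 0.0291 for Fgfr2, -0.0770 to 0.0393 for Fgfr3 and -0.0787 to 0.0164 for Fgfrl1. Of 43 genes followed, no other changed sign. Esrp2, Etv1, Gpc6, Ndst3, Nrp1 and Pik3r1 passed the threshold without the dimmest 50% of genes and with the trend, Ncam1 with the trend, and Esrp2 and Ndst3 also without the dimmest 30%. Many members lie below the median gene, where such values compress differences, and 3 arrays a group limit the precision.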
